A study of Mus musculus with 69 samples.

Results

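Dot1l overexpression was compared with a GFP control in the nucleus accumbens of male mice of the Standard rearing group, across all 14016 genes that had enough counts to be tested, of 52636 in the deposited table. The members are 8 RNA libraries whose genotype label is Dot1l overexpression and 8 whose label is GFP, 16 of the 32 RNA libraries and of 69 samples in the series. The other RNA libraries come from mice exposed to early life stress (ELS), 8 with GFP and 8 with Dot1l knockdown. They enter the filter that sets which genes are tested, the scaling of library sizes and the shared estimate of spread. Their own values appear only in 1 paragraph near the end. With the 16 libraries alone the filter kept 11712 genes. Libraries are named here as GFP or overexpression replicates 1 to 8, in the order of their accessions, and these numbers pair nothing between groups. Per the labels' protocol RNA came from whole tissue, whereas the series' design text speaks of D2-type medium spiny neurons. The sources used here do not give the vector, its promoter, the cells it reached, the age of the mice or whether animals were pooled. GFP is green fluorescent protein, a control that leaves Dot1l as it is. Nothing in the labels says that replicates came from separate animals, so p-values measure only the spread between these samples.

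DOT1L is the histone methyltransferase that places methyl groups on lysine 79 of histone H3. The dimethyl form, H3K79me2, lies over the first part of transcribed genes, where DOT1L travels with elongation factors such as the MLLT and AFF proteins. Medium spiny neurons are the main neurons of the nucleus accumbens, a reward region of the striatum, and fall into a type with the D2 dopamine receptor and a type with the D1 receptor.

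Dot1l RNA itself was not measurably higher in the libraries labelled overexpression. In GFP it had 37.0, 32.5, 39.4, 37.3, 10.6, 30.8, 35.5 and 48.5 counts per 1e6 counts (CPM, on edgeR's TMM-scaled library sizes) in replicates 1 to 8. With overexpression it had 53.7, 28.7, 28.8, 75.01, 25.3, 25.2, 46.7 and 61.7 CPM in the same order. Overexpression replicates 1, 4 and 8 lay above every GFP library 4 of the 8 lay below the GFP median, and GFP replicate 5 lay below every overexpression library. The group medians were 36.3 CPM in GFP and 37.7 CPM with overexpression, a log2 ratio of medians of 0.06 (exact 2-sided rank-sum test, p = 0.798, n = 8 and 8). The edgeR log2 fold change was 0.33 (SE 0.27, Benjamini-Hochberg adjusted p = 0.741). The log2 ratio was -0.33 when overexpression replicate 1, 4, 7 or 8 was left out, and the limma voom value was -0.01, so the sign of this difference rests on single libraries. The size of a rise within a small share of the cells could not be measured in whole tissue, and the sources used here do not say whether the vector's own transcript is counted at this gene. The target gene thus gave no check of the label. The groups below are the libraries labelled overexpression and GFP, and every direction is between those labels.

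Dot1l carried the mark it writes, as measured by chromatin immunoprecipitation in other samples of the Standard rearing group. In no sample labelled Dot1l overexpression was the mark measured. The authors' Standard H3K79me2 peak list held 18 peaks at the gene, and those annotated to its body had a summed width of 18.3 kb. The strongest of the 18 lay at chr10:80755266-80759768 on mm10 with a fold enrichment of 3.8 and a q-value of 1.65e-31. Kdm2b, a lysine demethylase reported to act on H3K79, had a GFP median of 17.2 CPM and an overexpression median of 23.3 CPM. Its lowest and highest values were 8.28 and 81.3 CPM in GFP and 10.3 and 25.4 CPM with overexpression. GFP replicate 6 alone reached 81.3 CPM. The log2 ratio of medians was 0.43 (exact rank-sum test, p = 0.382) while the edgeR log2 fold change was -0.27 (SE 0.30, adjusted p = 0.830).

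**Figure D1:**
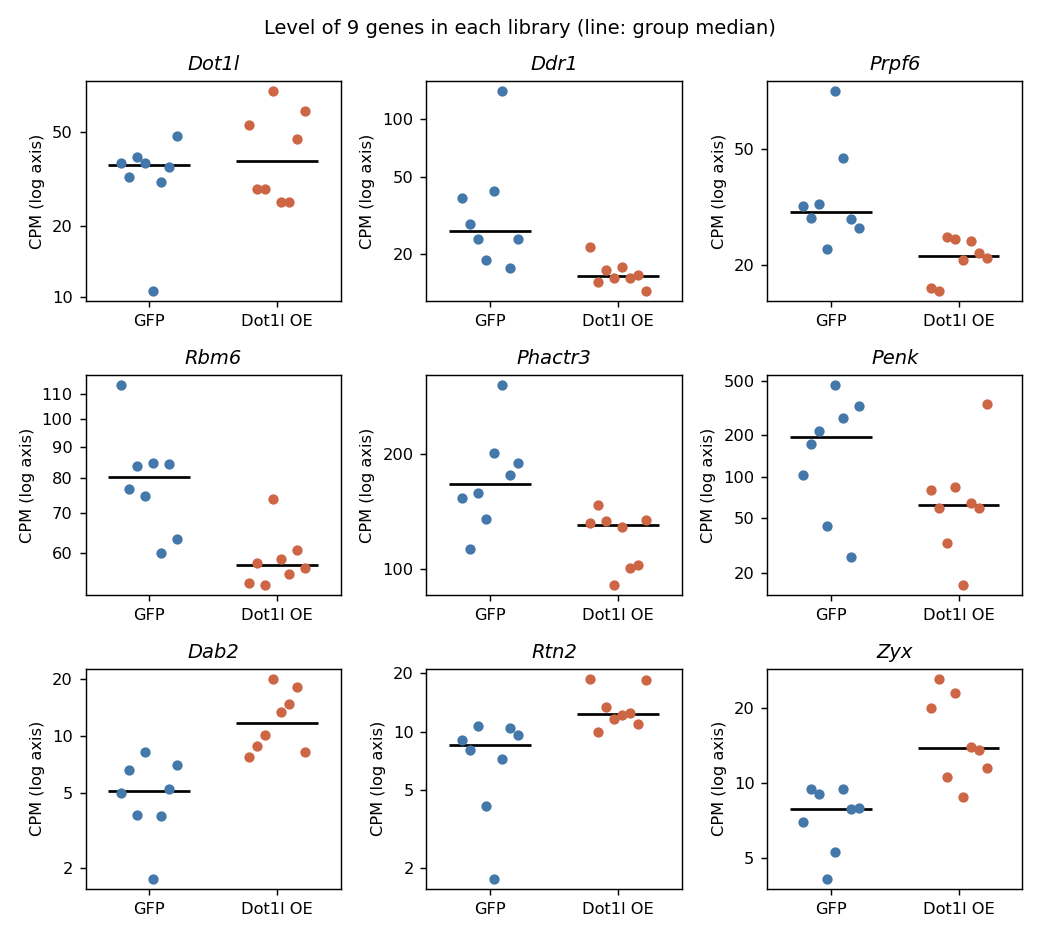
Level of 9 genes in CPM (log axis) in the 8 GFP and 8 Dot1l overexpression libraries; each point is a library and the line is the group median. Dot1l spans 25.2 to 75.01 CPM with overexpression and overlaps GFP, all 8 overexpression libraries lie below the GFP median for Ddr1, Prpf6, Rbm6 and Phactr3, and all 8 lie above it for Dab2, Rtn2 and Zyx.

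Across all genes no difference passed a test adjusted for the number of genes. With edgeR's quasi-likelihood test 0 of 14016 genes (0.0%) had an adjusted p under 0.05, and the smallest adjusted p was 0.137. At an unadjusted p under 0.05, 644 genes (4.59%) were higher and 880 (6.28%) lower with overexpression. DESeq2 called 42 genes at its adjusted p, 9 higher and 33 lower, and limma voom called 0. The exact rank-sum test, which asks only how the 16 values of a gene are ordered, also called 0 genes (0.0%) after adjustment. Before adjustment it took 473 genes higher (3.37%) and 194 lower (1.38%). Together these 667 genes are a share under 0.05 of those tested, no more than that threshold takes on average with no difference. The split moved to 548 and 102 with total counts without the 10 most abundant features, to 149 and 145 at a mean of at least 10 CPM, and to 323 and 280 without the shallow GFP replicates 1, 4 and 5, so the excess on the higher side depends on these choices. Its smallest p in the data was 0.000311, against 0.000155 as the smallest that 8 against 8 libraries can give. Over 14016 genes even that smallest p passes the adjustment only if many genes reach it together. The 0 calls of the rank-sum test were thus nearly set by the design and say little about single genes. No gene had groups without overlap in either direction (0.0% each), while 486 genes (3.47%) had all 8 overexpression libraries above the GFP median and 243 (1.73%) had all 8 below it.

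Most differences were small. The log2 ratio of medians had a median of 0.05 over all genes, lay between -0.16 and 0.30 from the 25th to the 75th percentile and was above 0 in 7864 genes (56.1%) and below 0 in 6152 (43.9%). It exceeded 1 in 418 genes and lay under -1 in 68. Among the 7267 genes with a mean of at least 10 CPM it passed those bounds in 18 and 12 genes.

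The genes that edgeR ranks first were often set by 1 library. Of the 1524 genes with an edgeR p under 0.05, 683 (44.8%) took over 50% of the summed level of their higher group from a single library, against 11.6% of all genes and 7.95% of the 667 genes with a rank-sum p under 0.05. That library was GFP replicate 6 for 237 genes, overexpression replicate 1 for 206, GFP replicate 5 for 110 and GFP replicate 1 for 78. In 215 of the 1524 genes the log2 ratio of medians had the opposite sign. The 2 tests shared 347 genes, 22.8% of the edgeR genes and 52.0% of the rank-sum genes. Nkd1, an inhibitor of WNT signalling, shows the pattern: it had 110.2 CPM in GFP replicate 6, against a GFP median of 10.0 CPM, a lowest GFP value of 4.97 CPM and 1.38 to 9.18 CPM with overexpression. Its edgeR log2 fold change was -2.15 (SE 0.48, adjusted p = 0.137), and its log2 ratio of medians was -0.89 (exact rank-sum test, p = 0.0104). Tarsl2, a threonyl-tRNA synthetase, and Sec22a, a vesicle trafficking protein, likewise peaked in GFP replicate 6, at 144.0 and 101.9 CPM. On the higher side 1700123O12Rik took 84.2% of its overexpression sum from replicate 1 (159 CPM), and its exact rank-sum p was 0.195. Gm11361 had 1.84 to 32.6 CPM with overexpression and at most 1.97 CPM in GFP, where 4 libraries were at 0. 4933413J09Rik was at 0 in 7 of 8 GFP libraries and had up to 4.45 CPM with overexpression. For this reason the ranks and medians lead below.

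**Figure D2:**
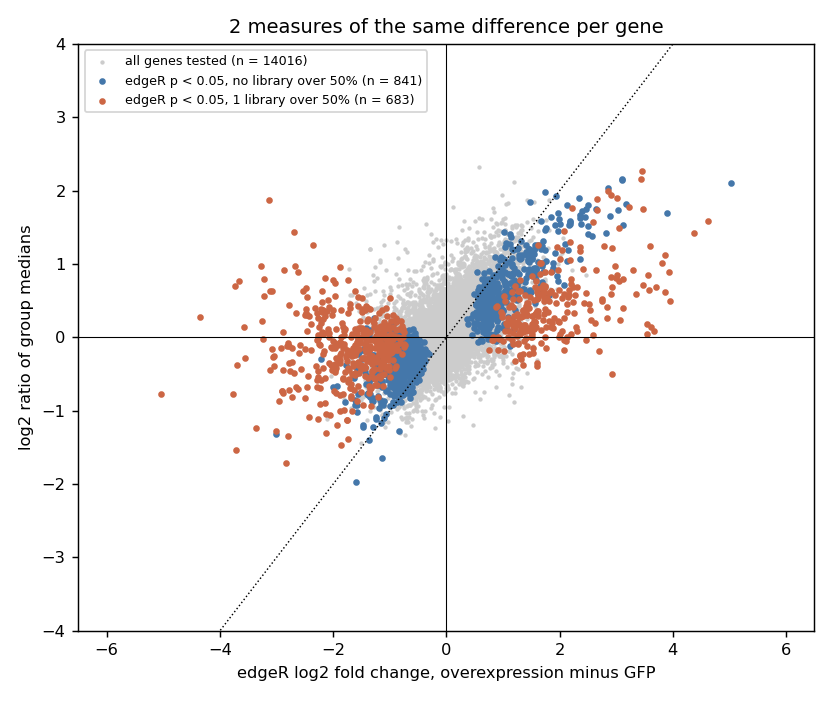
Each point is 1 of 14016 genes, with the edgeR log2 fold change (overexpression minus GFP) on the x axis and the log2 ratio of group medians on the y axis; the dotted line marks equal values. The 683 genes with an edgeR p under 0.05 and 1 library over 50% of the higher group (orange) reach far along the x axis at small ratios of medians, while the other 841 (blue) lie closer to the dotted line.

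Libraries differed in depth and in shape. GFP libraries held 0.314 to 9.80 M counts (M, 1e6), with replicates 1, 4 and 5 under 1 M, and overexpression libraries 2.48 to 7.88 M. GFP replicate 5 stood apart from the rest: its median rank correlation with the other 15 libraries was 0.724, where the others had 0.832 to 0.893, and its genes lay a median of 0.63 log2 units under their 16-library medians. GFP replicate 6 and overexpression replicate 1 had TMM factors of 0.565 and 0.530, and overexpression replicate 3 detected 24881 genes against 11670 to 20919 in the others of the comparison. GFP replicates 4, 5 and 6 and overexpression replicates 1 and 2 carry the number 2 at the end of their RNA titles. Overexpression replicate 3 carries the number 4. The labels do not say what this number marks. Some results, though not all that rest on them, are also given without GFP replicates 5 and 6 and overexpression replicates 1 and 3. These are called the 4 libraries below, a choice made after seeing the data.

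Genes higher with overexpression were led by Dab2, Rtn2 and Zyx. DAB2 is an adaptor of clathrin-mediated endocytosis, and the gene had 1.76 to 8.28 CPM in GFP (median 5.15) and 7.80 to 20.2 CPM with overexpression (median 11.8). A single GFP library, replicate 4, reached above the lowest overexpression library, so in 98.4% of all pairs of 1 overexpression and 1 GFP library the former was higher. The log2 ratio of medians was 1.13 (exact rank-sum test, p = 0.000311, adjusted p = 1.0; edgeR log2 fold change 1.28, SE 0.49, adjusted p = 0.284). Rtn2, a reticulon that shapes the endoplasmic reticulum, had 1.76 to 10.6 CPM in GFP (median 8.53) and 9.92 to 18.7 CPM with overexpression (median 12.3). Only overexpression replicate 2 lay within the GFP range, and the log2 ratio was 0.50, and 0.33 without the 4 libraries (exact rank-sum test, p = 0.000622, adjusted p = 1.0). Zyx, the focal adhesion protein zyxin, had 4.14 to 9.50 CPM in GFP (median 7.92) and 8.80 to 26.2 CPM with overexpression (median 13.8). Its log2 ratio was 0.76 (exact rank-sum test, p = 0.00109, adjusted p = 1.0), and overexpression replicate 5 alone lay within the GFP range. Levels this low rest on few reads in the shallow GFP libraries: the smallest raw count was 1 for Dab2 and Rtn2 and 2 for Zyx.

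The other 7 genes named on the higher side had log2 ratios of 0.48 to 1.21 and exact rank-sum p-values of 0.00109 to 0.00295, all with an adjusted p of 1.0. Utp18 (small ribosomal subunit processing) had a log2 ratio of 0.64, Fcf1 (the same process) 0.76, Osgep (a tRNA-modifying enzyme) 0.71 and Med24 (a Mediator subunit) 0.68. Prim2, a subunit of DNA primase, had a ratio of 0.48, Nudt5, a nucleotide hydrolase, 1.21, and Morf4l1, a chromatin reader, 0.68. For Utp18, Prim2, Nudt5, Osgep, Morf4l1 and Med24 all 8 overexpression libraries lay above the GFP median, and for Fcf1 7 did. Osgep took 59.7% of its overexpression sum from replicate 1, at 73.5 CPM, and Fcf1 46.0% from replicate 2. Their log2 ratios without the 4 libraries were 0.61 and 0.69, and Nudt5 had 1.64.

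Genes lower with overexpression were led by Ddr1, Prpf6 and Rbm6. DDR1 is a collagen receptor kinase, and the gene had 16.8 to 140.2 CPM in GFP (median 26.2) and 12.8 to 21.7 CPM with overexpression (median 15.3). GFP replicate 6 held the 140.2 CPM, but all 8 overexpression libraries lay below the GFP median, and only overexpression replicates 1 and 5 lay above the lowest GFP library. The log2 ratio of medians was -0.76, and -0.66 without the 4 libraries (exact rank-sum test on all 16, p = 0.00109, adjusted p = 1.0). The edgeR log2 fold change was -1.39 (SE 0.32, adjusted p = 0.137), and Ddr1 was among the 42 genes called by DESeq2, at an adjusted p of 0.0139. Prpf6, a core protein of the tri-snRNP of the spliceosome, had 22.8 to 79.3 CPM in GFP (median 30.6) and 16.3 to 25.0 CPM with overexpression (median 21.6). Rbm6, an RNA-binding regulator of splicing, had 60.1 to 114 CPM in GFP (median 80.3) and 53.1 to 73.7 CPM with overexpression (median 57.2). The 3 highest overexpression libraries of Prpf6 and the 2 highest of Rbm6 lay above the lowest GFP library, with all 8 overexpression libraries below the GFP median, and log2 ratios of -0.49 each (exact rank-sum test, p = 0.00109, adjusted p = 1.0 for both). Their edgeR log2 fold changes were -0.78 (SE 0.34, adjusted p = 0.365) for Prpf6 and -0.45 (SE 0.17, adjusted p = 0.280) for Rbm6.

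Cep89, Rnft2, Brat1, Spg20, Syt3, Zfp536 and Phactr3 completed the named genes on the lower side, with log2 ratios of -0.93 to -0.35 and exact rank-sum p-values of 0.00187 to 0.00466 (adjusted p = 1.0 for each). Phactr3, a regulator of protein phosphatase 1 and actin, had 112 to 302 CPM in GFP (median 166) and 90.5 to 146 CPM with overexpression (median 130.2), a log2 ratio of -0.35. Zfp536, a zinc finger repressor of neuronal differentiation, had 64.6 to 93.7 CPM in GFP and 35.0 to 73.2 CPM with overexpression, a ratio of -0.42. In both genes every overexpression library lay below the GFP median while part of each group lay within the range of the other. Cep89 (a centrosomal protein) had a ratio of -0.93, Rnft2 (a RING finger protein) -0.72, Brat1 (a BRCA1-associated activator of ATM) -0.86, Spg20 (spartin, a lipid droplet and endosome protein) -0.50 and Syt3 (a calcium-sensing synaptotagmin) -0.45. GFP replicate 5 held the highest value of Cep89, Rnft2, Brat1 and Spg20, from 28.2 to 65.2 CPM, and GFP replicate 1 held 57.8% of the GFP sum of Syt3. Of these 20 genes named by rank, each kept an exact rank-sum p under 0.05 when any 1 of the 16 libraries was left out, and the largest such p was 0.00932. All 20 were picked for small p-values, so that range describes them and adds no test.

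H3K79me2 at these genes was uneven. Dab2, Zyx and Prim2 had 0 Standard peaks, and so had Syt3 and Zfp536. Rbm6 had 32 peaks, Prpf6 16 and Phactr3 67. The summed width of those annotated to the gene body was 25.0 kb, 11.6 kb and 114 kb in the same order. The promoter peak of highest fold lay at chr9:107868832-107872526 for Rbm6 (fold 2.88), at chr2:181601792-181603981 for Prpf6 (fold 2.67), at chr17:35696950-35697880 for Ddr1 (fold 2.13) and at chr7:19282830-19283279 for Rtn2 (fold 1.72), all on mm10. For the target gene and for 3 of the leading genes with a peak, the 250 bases before the RefSeq start (GRCm38.p6, printed 5′ to 3′ on the gene's strand) show what precedes the marked stretch. Capitals mark a CCAAT box (CCAAT, or ATTGG on the other strand) or a GC box (GGGCGG, or CCGCCC on the other strand), found by letters alone. Of 32851 promoter sequences of that length 33.8% hold a CCAAT box and 32.7% a GC box.
Dot1l (chr10:80754953-80755202, + strand): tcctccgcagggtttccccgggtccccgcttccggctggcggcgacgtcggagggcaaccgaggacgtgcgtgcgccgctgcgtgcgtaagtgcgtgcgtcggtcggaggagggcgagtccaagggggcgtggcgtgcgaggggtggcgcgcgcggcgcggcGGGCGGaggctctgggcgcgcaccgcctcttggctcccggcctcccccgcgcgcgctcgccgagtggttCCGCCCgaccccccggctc
Rtn2 (chr7:19282374-19282623, + strand): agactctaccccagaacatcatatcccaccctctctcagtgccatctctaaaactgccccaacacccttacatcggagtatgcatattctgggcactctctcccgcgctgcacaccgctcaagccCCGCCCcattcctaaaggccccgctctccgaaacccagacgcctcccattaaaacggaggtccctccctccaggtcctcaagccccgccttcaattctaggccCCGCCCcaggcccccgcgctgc
Prpf6 (chr2:181601069-181601318, + strand): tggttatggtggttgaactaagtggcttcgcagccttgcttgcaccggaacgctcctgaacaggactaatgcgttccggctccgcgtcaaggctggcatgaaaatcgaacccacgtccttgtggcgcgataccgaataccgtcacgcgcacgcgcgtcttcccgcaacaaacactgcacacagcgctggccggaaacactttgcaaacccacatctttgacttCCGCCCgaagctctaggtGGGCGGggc
Rbm6 (chr9:107872820-107873069, - strand): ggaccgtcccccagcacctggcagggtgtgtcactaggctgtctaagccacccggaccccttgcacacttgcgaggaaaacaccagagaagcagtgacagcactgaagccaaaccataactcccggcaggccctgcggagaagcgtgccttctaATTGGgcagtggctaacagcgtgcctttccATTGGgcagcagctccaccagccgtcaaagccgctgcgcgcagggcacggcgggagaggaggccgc
None of these 4 windows overlapped a Standard peak. The nearest peak inside the gene began 63 bp after the start of Dot1l, 206 bp after that of Rtn2, 101 bp after that of Prpf6 and 293 bp after that of Rbm6. Dot1l, Rtn2 and Prpf6 held 2 GC boxes each and Rbm6 held 2 CCAAT boxes. GC made up 78.4% of the Dot1l window and 58.4% to 63.2% of the other 3. Ddr1, also a leading gene with a peak, has several RefSeq starts and is not printed. Its next peak inside lay 2710 to 6719 bp after those starts.

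Genes with and without H3K79me2 differed slightly in the median log2 ratio, and they also differed in level. The median of mean CPM was 18.2 in genes with any Standard peak and 4.76 in genes with none. The 8207 tested genes with any Standard peak had a median log2 ratio of 0.02, and 52.7% of them were higher by median. The 5809 genes with no peak had a median of 0.13, with 61.0% higher. The difference of -0.11 was -0.05 without the 4 libraries and -0.04 at a mean of at least 10 CPM. Within ranges of mean CPM the same difference was 0.0032 under 2, -0.05 from 2 to 5 and -0.0040 from 5 to 10. It was -0.02 from 10 to 20, -0.0018 from 20 to 50 and -0.06 at 50 and over. Genes with a promoter peak, within 3 kb of a start (7279 genes), had a median of 0.02, and the 928 with a peak in the gene body only had -0.03. By rank, 235 genes with no peak were higher and 54 lower (4.05% and 0.930%), against 238 and 140 (2.90% and 1.71%) of those with a peak.

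The length of gene body under peaks ordered the medians. Length here is the summed width of peaks annotated to the gene body, so a peak annotated only to a promoter adds none. Genes with no gene body peak (7538), some of them with a promoter peak, had a median log2 ratio of 0.12. Genes with a gene body peak were cut into 4 groups of equal size. From the shortest to the longest length these had 0.06, 0.04, -0.0037 and -0.07. In the longest length group, 1620 genes with 20.5 to 663 kb under peaks, 37.7% of genes were higher by median, and 16 were higher and 54 lower by rank (0.988% and 3.33%). Phactr3, Rbm6 and Kmt2a belong to that group. In genes with no gene body peak 304 were higher and 71 lower by rank (4.03% and 0.942%).

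Level moved together with the mark. Marked genes were more abundant: the median of mean CPM was 63.5 in the longest length group and 5.23 in genes with no gene body peak. The median log2 ratio was 0.25 in the 1475 genes under a mean of 2 CPM, 0.18 from 2 to 5, 0.11 from 5 to 10, 0.05 from 10 to 20, 5.9e-05 from 20 to 50 and -0.07 in the 2048 genes at 50 CPM and over. Within the range of 20 to 50 CPM the longest length group had -0.01 (492 genes) and genes with no gene body peak 0.02 (789). At 50 CPM and over they had -0.09 (1001 genes) and -0.00055 (329), and 46 genes of that length group were lower by rank and 4 higher (4.6% and 0.4%), beside 3.03% and 0.537% of all genes at that level. Gene span moved with both, among genes for which a span was found (95.7% of those tested). Cut into 4 groups by span, these genes had a median log2 ratio of 0.13 in the shortest group and -0.03 in the longest. At 50 CPM and over, the difference between the 2 length classes was -0.06 within each of the 2 upper span groups. Without the 4 libraries the medians by level ran from 0.08 under 2 CPM to -0.04 at 50 CPM and over, and those by length from 0.06 with no gene body peak to -0.06 in the longest length group.

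**Figure D3:**
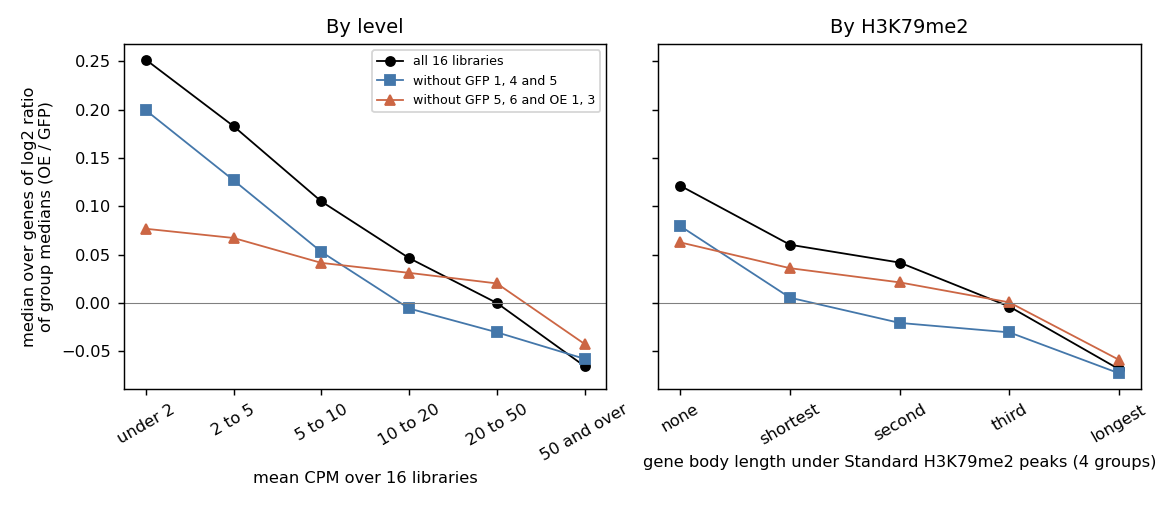
Median over genes of the log2 ratio of group medians (overexpression over GFP), on the left by mean CPM and on the right by length of gene body under Standard H3K79me2 peaks, for all 16 libraries and without 2 sets of libraries. With all 16 libraries the medians go from 0.25 to -0.07 by level and from 0.12 to -0.07 by length, and without GFP replicates 5 and 6 and overexpression replicates 1 and 3 from 0.08 to -0.04 and from 0.06 to -0.06.

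The same difference was also taken library by library. In each library the deviation of every gene from its 16-library median was taken, and the median of the longest length group was set against that of genes with no gene body peak. In GFP the value ran from -0.05 (replicate 2) to 0.94 (replicate 5), the other 7 GFP libraries had at most 0.20, and 6 of the 8 were above 0. With overexpression it ran from -0.27 (replicate 3) to 0.38 (replicate 1), and 6 of the 8 were below 0. The groups overlapped, with the overexpression library lower in 51 of the 64 pairs and group medians of -0.03 with overexpression and 0.05 in GFP (exact 2-sided rank-sum test over libraries, p = 0.0499). This test was added after the values were seen, as 1 of 3, and its p adjusted over the 3 was 0.150. Its unadjusted p was 0.0932 without GFP replicates 1, 4 and 5 and 0.0649 without the 4 libraries, and was 0.05 or more in 13 of 16 omissions of 1 library. For genes with a peak minus genes without, and for all genes, the exact test gave p = 0.234 each (adjusted p = 0.234). The longest length group and genes with no gene body peak were not matched for level here (medians of mean CPM 63.5 and 5.23). GFP replicate 5 deviated by 0.20 in genes at 50 CPM and over and by -1.50 in genes under 2 CPM. Overexpression replicate 3 deviated by -0.13 and 0.66 in the same order. What part level has in these library values was not tested.

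**Figure D4:**
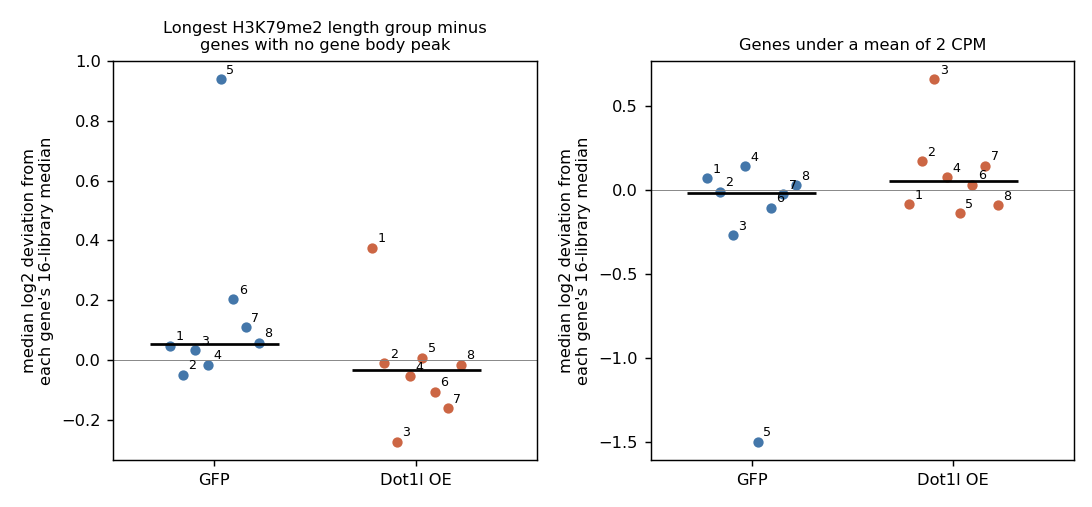
Median log2 deviation from each gene's 16-library median in the 8 GFP and 8 overexpression libraries (points, numbered by replicate; line, group median), on the left as the longest H3K79me2 length group minus genes with no gene body peak, on the right for genes under a mean of 2 CPM. GFP replicate 5 lies at 0.94 on the left and at -1.50 on the right, apart from the other 15 libraries.

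The machinery around DOT1L showed no common direction. Of 24 tested DOT1L partners and elongation factors 11 were higher and 13 lower by median, at a list median of -0.05 where all genes had 0.05, and 1 in each direction had a rank-sum p under 0.05, beside 3.37% higher and 1.38% lower of all genes. Supt5, the SPT5 subunit of the elongation factor DSIF, had 15.9 to 45.3 CPM in GFP (median 27.9) and 22.8 to 55.2 CPM with overexpression (median 42.1). Its log2 ratio was 0.58 (exact rank-sum test, p = 0.0207, adjusted p = 1.0), with 7 of 8 overexpression libraries above the GFP median. Kmt2a, the H3K4 methyltransferase whose leukaemia fusions recruit DOT1L, had 144 to 371 CPM in GFP (median 184) and 119 to 160.4 CPM with overexpression (median 141). All 8 overexpression libraries lay below the GFP median, GFP replicate 6 was the highest at 371 CPM, and the log2 ratio was -0.38 (exact rank-sum test, p = 0.0104, adjusted p = 1.0). Of the proteins that bind DOT1L directly, Mllt1 had a ratio of -0.42, Mllt3 -0.15, Mllt6 0.02 and Mllt10 0.01. Cdk9, the kinase of the elongation factor P-TEFb, had 0.54.

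Other chromatin enzymes were close to the median of all genes. Of 23 enzymes of H2B ubiquitin and of H3K4, H3K36 and H3K27 methylation 14 were higher and 9 lower (list median 0.04), with none past a rank-sum p of 0.05 in either direction. Kmt2d and Kmt2c, H3K4 methyltransferases, had ratios of 0.11 and 0.14. Of 10 H3K9 enzymes and HP1 proteins 8 were higher and 2 lower (0.10), where Ehmt1, an H3K9 methyltransferase, had -0.10 and Cbx5, which encodes HP1 alpha, 0.05. Histone deacetylases and sirtuins had 11 of 18 higher (0.13). Sirt7, a nucleolar sirtuin, had 0 to 6.51 CPM in GFP and 4.08 to 14.3 CPM with overexpression. All 8 overexpression libraries lay above its GFP median of 3.70 CPM, and the ratio was 0.44 (exact rank-sum test, p = 0.00466, adjusted p = 1.0).

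Ribosomal protein genes lay toward the higher side. Of 26 tested genes of the small ribosomal subunit 23 were higher and 3 lower by median, at a list median of 0.26, and 4 were higher and 0 lower by rank, beside 3.37% and 1.38% of all genes. Their summed level was 350 to 651 CPM in GFP (median 495) and 485 to 687 CPM with overexpression (median 621), with 1 overexpression library below the GFP median. The ranges overlapped for most of their length. Over all genes the median log2 ratio was 0.11 from 5 to 10 CPM, 0.05 from 10 to 20 CPM and 0.13 in the shortest of 4 groups by gene span. What part level or span has in the list median was not tested. Rps10 had 0 to 9.01 CPM in GFP (median 4.48) and 4.18 to 10.6 CPM with overexpression (median 8.46), a ratio of 0.85 (exact rank-sum test, p = 0.0281, adjusted p = 1.0). Rps14 had a ratio of 0.72, and 0.46 without the 4 libraries. Rps27 went the other way, at -0.57. The list median was 0.43 without the 4 libraries. These genes have many processed pseudogenes, and the sources used here do not say how reads shared with such copies were counted, so single members are uncertain.

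Translation factors had 14 of 22 higher by median and a list median of 0.05, where all genes had 0.05, with Eif3f, a subunit of the initiation factor eIF3, at 0.53 (exact rank-sum test, p = 0.0499). Spliceosome and SR protein genes had 15 of 24 higher (0.08). Within them Prpf19, a ubiquitin ligase of the spliceosome, had 0.59 (exact rank-sum test, p = 0.0281) and Rbfox1, a neuronal splicing regulator, -0.46 (exact rank-sum test, p = 0.0499). Rbfox1 lies in the longest H3K79me2 length group, with 202 Standard peaks. Folding and unfolded protein response genes had 11 of 18 higher (0.09), with the calcium-binding chaperones Calr at -0.01 and Canx at -0.04. In metabolism 13 of 16 glycolysis genes (0.09) and 12 of 17 genes of the TCA cycle (0.08) were higher and 7 of 17 of cholesterol synthesis (-0.06), with none past a rank-sum p of 0.05. Pkm, the enzyme that makes pyruvate, had 0.24, Eno2, the neuronal enolase, -0.15, Sdha, a succinate dehydrogenase subunit, -0.17, and Fdft1, squalene synthase, -0.19.

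Neuronal gene lists lay slightly lower by median. Of all genes 43.9% were lower, and at 50 CPM and over the median was -0.07 with 38.5% of genes higher. Cadherins, protocadherins and contactins, which join neurons to each other, had 19 of 26 lower by median (list median -0.17, -0.26 without the 4 libraries and -0.07 without GFP replicates 1, 4 and 5), with 1 lower and 0 higher by rank, beside 1.38% and 3.37% of all genes. That gene was Pcdh9, a protocadherin, with 742 to 1558 CPM in GFP (median 1035) and 511 to 1390.0 CPM with overexpression (median 836). Its groups overlapped widely, and the ratio was -0.31 (exact rank-sum test, p = 0.0499, adjusted p = 1.0). Cytoskeleton and motor genes had 12 of 20 lower (-0.06), and Nefm, a neurofilament subunit, had 31.7 to 194 CPM in GFP (median 45.3) and 25.1 to 58.9 CPM with overexpression (median 31.9). Its ratio was -0.50 (exact rank-sum test, p = 0.0281, adjusted p = 1.0), and -1.16 without the 4 libraries. Calcium signalling genes had 15 of 23 lower (-0.04), where Camk2a, the alpha subunit of the synaptic kinase CaMKII, had 0.36 and Prkcb, protein kinase C beta, -0.20. Receptors for serotonin, acetylcholine and adrenaline had 13 of 20 lower (-0.10), with the muscarinic receptors Chrm3 at -0.28 and Chrm1 at -0.22. By pairs of libraries this list was not lower. The overexpression library was higher in a list median of 51.95% of pairs, where all genes had 53.12%.

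Clock genes went both ways. Of 16 tested, 7 were higher and 9 lower by median (list median -0.06), and 2 in each direction had a rank-sum p under 0.05, beside 3.37% higher and 1.38% lower of all genes. Npas2, a partner of BMAL1 that can replace CLOCK, had 72.7 to 187 CPM in GFP (median 107) and 46.4 to 124 CPM with overexpression (median 75.3). Its log2 ratio was -0.50 (exact rank-sum test, p = 0.0104, adjusted p = 1.0), and 7 of 8 overexpression libraries lay below the GFP median. Tef, an output transcription factor of the clock, had -0.29 (p = 0.0499 in the exact test). Cry1, a repressor of the clock, had 0.51 (p = 0.0379 in the exact test) and Bhlhe41, another repressor, 0.53 (p = 0.0499 in the exact test). The sources used here do not give the time of day at which tissue was taken. Antiviral and inflammatory genes had 11 of 17 lower (-0.12) with none past a rank-sum p of 0.05. Stat2, an interferon signal transducer, had a ratio of -0.06, and Nfkb1, an NF-kappa-B subunit, -0.14 with 425 CPM in GFP replicate 6 against a GFP median of 39.8.

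Myelin genes were lower by median without exception among the 14 tested, at a list median of -0.44 (-0.49 without the 4 libraries). Their summed level was 615 to 1122 CPM in GFP (median 968) and 480 to 987 CPM with overexpression (median 637), and 7 of the 8 overexpression libraries lay below the GFP median. By rank 1 of the 14 was lower, beside 1.38% of all genes. Mag, a myelin adhesion molecule, had -0.70, Mog, a surface myelin protein, -0.74 and Mbp, myelin basic protein, -0.26. Oligodendrocyte precursor markers had 5 of 7 lower (-0.20), with Pdgfra, their growth factor receptor, at -0.20 and Vcan, a matrix proteoglycan, at -0.03. In bulk tissue fewer cells of a type and less RNA per cell cannot be told apart.

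Medium spiny neuron markers were lower by median but varied widely within each group. Of the 5 tested D2-type markers 5 were lower (list median -0.52, and -0.28 without the 4 libraries), of 6 D1-type markers 5 (-0.19, -0.47 without them and -1.36 without GFP replicates 1, 4 and 5) and of 15 shared markers 12 (-0.28, and -0.19 and -0.57 in the same order), all with none past a rank-sum p of 0.05. The summed level of the shared markers was 1586 to 4182 CPM in GFP (median 2284) and 1303 to 4091 CPM with overexpression (median 1704). Penk, which encodes enkephalin, had 26.2 to 467 CPM in GFP (median 194) and 16.2 to 337 CPM with overexpression (median 62.1). Of the overexpression libraries 7 lay below the GFP median and replicate 8 stood far above the others, and with a ratio of -1.64 the test gave p = 0.160 (exact rank-sum test). Drd2, the D2 dopamine receptor, had a ratio of -0.68 (exact rank-sum test, p = 0.279) and Drd1, the D1 receptor, -0.41 (exact rank-sum test, p = 0.878). Pde10a, the striatal phosphodiesterase, had 319 to 1015 CPM in GFP and 194 to 994 CPM with overexpression. Defining markers of the tissue's own neurons were thus present in every library, over a range of several-fold within a group. Grik3, a kainate receptor, had -0.06, Arpp21, a striatal phosphoprotein, 0.02, Eya1, a transcription cofactor, -0.28 and Sfxn1, a mitochondrial carrier, -0.07.

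Markers of other cells show what else the tissue held. Cortical excitatory markers summed to at most 687 CPM in GFP (median 452) and 261 to 884 CPM with overexpression (median 521), and 7 of 10 were higher by median (0.18, and -0.03 without the 4 libraries). Slc17a7, the vesicular glutamate transporter of cortical neurons, had 48.3 to 149 CPM in GFP and 67.6 to 368 CPM with overexpression, a ratio of 0.35, and Nrgn, neurogranin, 0.64. Without the 4 libraries these ratios were 0.17 and 0.19. Interneuron markers summed to 28.2 to 345 CPM in GFP (median 68.9) and 66.2 to 107 CPM with overexpression (median 81.6). Cck, the neuropeptide cholecystokinin, reached 129 CPM in GFP replicate 6 against a median of 9.91, and Nos1, neuronal nitric oxide synthase, 82.1 against 23.2. Astrocyte markers had 8 of 10 lower (-0.08), with the glutamate transporters Slc1a2 at -0.08 and Slc1a3 at -0.02. Microglia markers summed to 449 to 2908 CPM in GFP (median 974) and 657 to 1969 CPM with overexpression (median 1189), with 7 of 10 higher (0.24, 0.92 without the 4 libraries and -0.04 without GFP replicates 1, 4 and 5). Csf1r, the receptor for microglial survival factors, had 0.17, and 0.91 without the 4 libraries. Endothelial and pericyte markers had 8 of 11 higher (0.26, and 0.10 without the 4 libraries), where Ly6c1, an endothelial surface protein, had 0.87 (exact rank-sum test, p = 0.0281) at medians of 1.11 and 2.46 CPM, and 1.5 without the 4 libraries. Ependymal and choroid plexus markers summed to at most 14.6 CPM except in GFP replicate 6, where Foxj1, the regulator of motile cilia, had 107 CPM against a GFP median of 0.974. Red blood cell markers summed to at most 23.6 CPM in any library. What part these mixtures of cells have in the differences above was not tested.

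Gene counts show gaps that limit the lists. Of 480 list entries, 37 had too few counts to test, and 19 of those were listed at 0 in all 16 libraries. Among the latter are genes that brain tissue uses widely, such as Gfap and Tubb3, and defining markers of microglia (P2ry12 and Itgam) and of oligodendrocyte precursors (Gpr17). A value of 0 at these genes is given only as listed.

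**Figure D5:**
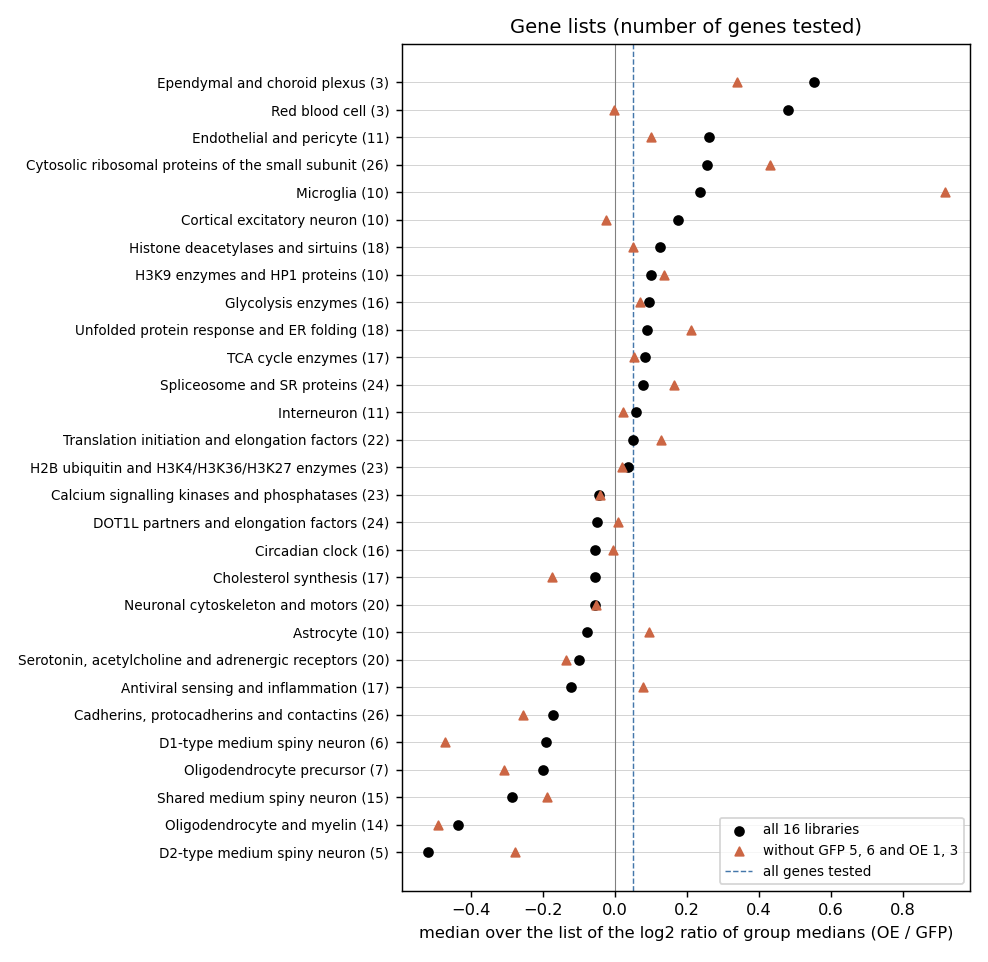
Median over each of 29 gene lists of the log2 ratio of group medians (overexpression over GFP), with all 16 libraries (black) and without GFP replicates 5 and 6 and overexpression replicates 1 and 3 (orange); the dashed line is the median of all genes, 0.05. The D2-type and myelin lists lie lowest, at -0.52 and -0.44, and the microglia list moves from 0.24 to 0.92.

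The ELS libraries give a view of the leading genes from other groups. The contrast of ELS GFP with Standard GFP shares the 8 Standard GFP libraries with the overexpression contrast, so values are only set side by side. Ddr1 had an edgeR log2 fold change of -1.39 for overexpression and -1.28 for ELS, Nkd1 -2.15 and -1.88, Dab2 1.28 and 1.99, and Zyx 1.02 and 0.93. Prpf6 had -0.78 and 0.07, and Rtn2 0.73 and 0.57. Dot1l knockdown against ELS GFP shares no library with the overexpression contrast. It does share the 8 ELS GFP libraries with the ELS contrast, where they enter with the opposite sign. Opposite directions in those 2 contrasts are thus not independent. In the knockdown contrast Dab2 had -1.03, Zyx -0.57, Rtn2 -0.45, Ddr1 -0.05, Prpf6 -0.77 and Rbm6 0.20. Dot1l itself had 0.28 there (edgeR adjusted p = 0.985), so its RNA was not measurably lower in the libraries labelled knockdown. These directions too are between labels. The test of the difference between the overexpression and the knockdown effect called 0 of 14016 genes (0.0%) at an adjusted p under 0.05 with edgeR and 0 with DESeq2, and 1188 genes (8.48%) at an unadjusted edgeR p under 0.05. For Dab2 that difference was 2.31 (edgeR adjusted p = 0.437) and for Zyx 1.59 (edgeR adjusted p = 0.437). Both genes were picked for their rank in the overexpression contrast.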

How the data were processed

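RNA counts of 32 nucleus accumbens libraries were analysed, 8 in each of 4 groups, with groups taken from the labels. The authors deposited them as whole-number counts per Ensembl gene, without normalization. Tools named in the submitters' processing notes are FastQC, HISAT2, featureCounts and DESeq2, with build mm10. The sources used here give no versions, roles or use of strand, and reads of overlapping or antisense genes cannot be told apart. Peaks come from the authors' deposited Standard H3K79me2 list, where, per the file headers, every peak has a q-value and a fold enrichment. Its 475994 lines hold 117819 distinct peaks, and the sources used here name neither the peak caller nor the pooling of libraries. Symbols were found for 52403 of 52636 gene IDs, and 0 columns matched no sample.

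The members and gene lists were chosen with earlier results of these data known. edgeR 4.0.16 (R 4.3.3, TMM, filterByExpr, robust quasi-likelihood test, 32 libraries, 28 residual degrees of freedom, common biological coefficient of variation 0.566) gave log2 fold changes with Benjamini-Hochberg adjusted p-values and a threshold of 0.05. The SE of a fold change was derived from the test (fold change divided by the root of F), so it is no spread measured over libraries. Levels are counts per 1e6 counts (CPM) on TMM library sizes. The log2 ratio of medians is log2 of overexpression over GFP group medians, with a pseudocount of 0.5 CPM in each. The rank-sum test is an exact 2-sided permutation test over all 12870 ways to split the 16 libraries, adjusted over 14016 genes. Genes are counted as higher or lower by rank at an unadjusted p under 0.05. It was also run on 3 medians per library, added after they were seen. Both tests were run on simulated counts drawn independently per gene, with changes set only in genes at a mean of at least 10 CPM. No simulated library stood apart from its group, so that check does not cover such libraries. Named genes are Dot1l and Kdm2b, the 10 with the smallest rank-sum p in each direction at a mean of at least 5 CPM with a standard symbol, the 3 with the smallest edgeR p in each direction, and in each list up to 3 per direction with a rank-sum p under 0.05 or else the 2 most abundant. Further members of a list are named after their values were seen, and a few genes that the rule picks are left out of the text. H3K79me2 length is the summed full width of Standard peaks annotated to a gene body, in 4 groups of equal size. A peak annotated only to a promoter adds no length, even where it lies inside the gene. Alternatives used DESeq2 1.42.0, limma 3.58.1, other scalings, filters and sets of libraries. Python 3.11.15, scipy 1.17.1 and pandas 2.3.3 were used otherwise. Peak coordinates are those of the list.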

Additional observations from a re-analysis of the deposited data

Results flagged for a closer look

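Within a group of 8 libraries, a value was marked when the gap between it and its nearest neighbour took more than 0.526 of the group's range (Dixon's criterion). Of 160 groups of values examined 60 (37.5%) held such a library. Chance marks about 1 in 20 groups of normal values, but CPM are skewed and some of these genes were named for an edgeR p that 1 library set, so the share is not an excess over chance. GFP replicate 6 held 15 of them, overexpression replicate 1 held 13, GFP replicate 5 held 11 and GFP replicate 1 held 5.

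In GFP replicate 6 the marked values, in CPM, were 81.3 for Kdm2b, 140.2 for Ddr1, 302.5 for Phactr3, 110.2 for Nkd1, 144.0 for Tarsl2, 101.9 for Sec22a, 370.9 for Kmt2a and 449 for Kmt2d. They went on with 251 for Sdha, 695.5 for Prkcb, 275.5 for Chrm1, 424.5 for Nfkb1, 82.1 for Nos1, 129 for Cck and 107 for Foxj1, and all 15 were the highest of the group. GFP replicate 5 had 79.3 CPM of Prpf6, 40.5 of Cep89, 51.1 of Rnft2, 28.2 of Brat1, 65.2 of Spg20, 215 of Kmt2c and 2015 of Slc1a2, all high, and low values of 10.6 for Dot1l and 0 for Osgep. Its median deviation over all genes was -0.63, and its longest H3K79me2 length group lay 0.94 above genes with no gene body peak. GFP replicate 1 was high in Rbm6 (114 CPM), Syt3 (103), Cbx5 (93.1), Chrm3 (467.5) and Arpp21 (1056). GFP replicate 2 was the one GFP library with a count for 4933413J09Rik, at 0.237 CPM.

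Overexpression replicate 1 was low in Kdm2b (10.3 CPM) and high in Osgep (73.5), Gm11361 (32.6), 1700123O12Rik (159), Kmt2d (349.8), Ehmt1 (181), Fdft1 (117), Chrm1 (105), Arpp21 (794), Slc17a7 (368) and Slc1a2 (2560). Its median deviation over all genes was -0.031 and its longest length group lay 0.38 above genes with no gene body peak. Overexpression replicate 2 was high in Fcf1 (28.3 CPM), Sdha (158) and Bhlhe41 (46.0), and replicate 3 in Prim2 (27.7), Tarsl2 (11.7), Nefm (58.9) and Kl (5.79). Replicate 4 was high in Rbm6 (73.7 CPM) and Rnft2 (23.3), replicate 5 in Eif3f (33.3), Sfxn1 (31.1) and Foxj1 (11), and replicate 8 in Spg20 (25.9), Npas2 (124) and Penk (337).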

How the results depend on the processing

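Depth limits the comparison: 3 GFP libraries held under 1 M counts, so genes under about 5 CPM rest on a few reads there. edgeR called 0 genes in every alternative fit except without the Standard libraries under 1 M counts, where it called 32, all lower and 29 of them highest in GFP replicate 6. DESeq2 called 42, of which 29 took over 50% of the higher group from 1 library and 18 had a rank-sum p under 0.05. At an unadjusted p, edgeR took 2952 genes higher and 1264 lower with no low count filter, 397 and 567 with the 16 libraries alone, 471 and 489 with the number from 1 to 4 that ends each RNA title as a factor and 346 and 393 without the 4 libraries that stand apart, and limma voom took 300 and 353. With this few libraries and this many genes the rank-sum test could hardly call any gene after adjustment, and it called 0 in all alternatives run. Before adjustment it took 149 genes higher and 145 lower at a mean of at least 10 CPM (fewer genes tested), 548 and 102 with total counts without the 10 most abundant features, and 323 and 280 without the shallow libraries. Leaving out 1 library at a time gave 282 to 428 genes higher and 116 to 187 lower. The count higher was 282 without GFP replicate 5 and 310 without overexpression replicate 4. The count lower was 127 without GFP replicate 3 and 122, 119, 116 and 126 without overexpression replicates 4, 5, 6 and 7.

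Genes whose groups do not overlap numbered 1 higher with DESeq2 size factors, 3 higher with total counts without the 10 most abundant features, 11 higher and 11 lower without the shallow libraries and 17 higher and 14 lower without the 4 libraries. Smaller groups separate more easily. Leaving out 1 library gave 0 to 4 higher and 0 to 3 lower. Dot1l reversed to -0.014 with limma voom, to -0.064 with total counts without the 10 most abundant features and to -0.33 without overexpression replicate 1, 4, 7 or 8, over a leave-one-out range of -0.33 to 0.36. Over the same omissions the median of all genes was 0.03 to 0.07, the difference between genes with and without a peak -0.13 to -0.07 and that between the longest length group and no gene body peak -0.23 to -0.14. The cause of these changes was not tested. The difference of the library medians between those 2 length classes, -0.087, was -0.092 without the shallow libraries, -0.075 without the 4 libraries and -0.11 to -0.068 without 1 library, with p-values in the exact test of 0.00932 to 0.0939 in the last case. Of the alternatives for single genes and lists, 146 lost a rank-sum p under 0.05. Only 1 list value moved by more than the spread between libraries, the D1-type list at -1.36 without the shallow libraries. The other 1580 kept their side of that p threshold or, for lists, moved by less than that spread. For genes with a main p of 0.05 or more the sign was not part of this rule. Csf1r, for example, ran from -0.14 to 0.58 over the omissions of 1 library. No paired analysis was possible because the title number repeats within a group and the labels do not say what it marks, so it sets no library of one group beside a single library of the other.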

Other observations

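Calls that appear only under an alternative centre on a few libraries. Of the 32 genes that edgeR called without the shallow Standard libraries, 27 took over 50% of their GFP sum from replicate 6, 6 had a rank-sum p under 0.05 on all 16 libraries, and 3 were not among the 14016 genes tested. Of the 42 genes called by DESeq2, GFP replicate 6 was the highest library in 16. Ddr1 was called in both, at adjusted p-values of 0.0462 with edgeR without the shallow libraries and 0.0139 with DESeq2, and Jup (plakoglobin, a junction protein) was called in both at 0.0390 and 0.0207. Jup was chosen here after its values were seen.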
